A study of Homo sapiens with 12 samples.

Results

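The genes described here encode the subunits of the respiratory chain and the ATP synthase that come from the nuclear genome. They were found by symbol (NDUFA, NDUFB, NDUFC, NDUFS and NDUFV followed by a digit, UQCR, COX4 to COX8, ATP5, and SDHB, SDHC, SDHD and CYC1), with a coding transcript required. This rule found 88 of the 22257 genes in the tables, and it used no measured difference. Of the 88, 84 belong to the complexes: 36 to complex I, 3 to complex II, 10 to complex III, 19 to complex IV and 16 to complex V. The other 4 match by symbol only: COX4NB, ATP5S and ATP5SL are not subunits, and ATP5J2-PTCD1 is a readthrough gene that may share reads with ATP5J2.

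Complexes I and II pass electrons from NADH and from succinate to ubiquinone, complex III passes them on to cytochrome c, and complex IV passes them to oxygen. Complexes I, III and IV pump protons across the inner mitochondrial membrane, and complex V, the ATP synthase, uses the return of the protons to make ATP. Mitochondrial DNA encodes a few core subunits of these complexes, while the genes described here are nuclear. Tumour cells supplied with glucose often draw much of their ATP from glycolysis, and acetate can enter mitochondrial oxidation as acetyl-CoA.

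The RNA came from LN229 cells, a human glioblastoma line in long use. All 3 groups were kept for 24 hours in RPMI medium with 10% dialyzed FBS (serum freed of small molecules), and each had 4 replicate libraries. The first group had 1 mM glucose, the second 1 mM glucose with 5 mM acetate, and the third 10 mM glucose without added acetate. Nothing in the labels says that the replicates were separate cultures. The p-values therefore reflect only the spread between these libraries, which may be technical.

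Total counts ran from 24.4 M to 27.2 M per library. All 8 glioma markers checked reached 1 CPM, although GFAP, an astrocyte filament gene, was only between 0.739 and 1.47 CPM. CPM are counts per megacount of a library, scaled by TMM. STMN2, a neuron marker, had no count, and AIF1, PECAM1 and CDH5, markers of microglia and endothelium, were near 0. SYT1 and CD68, listed as markers of neurons and macrophages, were present and lower in 10 mM glucose (SYT1 had a mean of 114 CPM in 1 mM and 26.6 CPM in 10 mM, and CD68 of 58.5 and 20.4 CPM). Summed, the 3 neuron markers lay between 95.9 and 128 CPM in 1 mM, 98.8 and 113 CPM in acetate and 24.8 and 28.7 CPM in 10 mM glucose. The 3 markers of microglia and macrophages summed to 54.5 to 64.6, 62.2 to 68.9 and 17.9 to 22.0 CPM, and in each list 1 of 3 reached 1 CPM. The 3 markers of endothelium, 1 of which reached 1 CPM, summed to 0.244 to 0.429, 0.795 to 1.29 and 0.697 to 1.09 CPM. All 3 markers of fibroblasts and pericytes reached 1 CPM, and their sum was higher in 10 mM glucose (21.8 to 26.9, 21.7 to 23.9 and 28.6 to 30.04 CPM), but the markers did not move together. ACTA2 had a mean of 8.52 CPM in 1 mM and 16.1 CPM in 10 mM, and PDGFRB of 2.51 and 4.48 CPM. COL1A1 went the other way, with 12.9 and 8.94 CPM. Of the glioma markers SOX2 had a mean of 14.3 CPM in 1 mM and 75.4 CPM in 10 mM, NES of 452 and 1053 CPM, and OLIG2 of 24.9 and 8.47 CPM. S100B had 86.6 and 186 CPM, CD44 1049 and 759 CPM, and EGFR 128 and 85.6 CPM. The 8 glioma markers summed to 6454 to 7717, 6046 to 6494 and 5891 to 6006 CPM. Most of this sum was VIM, with a mean of 5249 CPM in 1 mM and 3768 CPM in 10 mM. The part of these markers in the results was not tested. In bulk RNA a change in the make-up of the cells and a change in RNA per cell cannot be told apart. In 2 libraries, 1 mM replicate 3 and acetate replicate 1, short transcripts stood higher than in the others (Spearman correlation of the deviation of a gene from its mean with transcript length -0.48 in each, over 14093 genes, against -0.18 to 0.23 in the other 10). In the 4 libraries with 10 mM glucose this correlation was 0.11 to 0.23, so it went partly with the groups. The tested members had a median transcript length of 1098 nt against 3036.5 nt for all genes tested. Their median coding length was 432 nt against 1394 nt. Among the 81 tested members the Spearman correlation of coding length with the log2 fold change in high against low glucose was -0.045. The part of length in the results was not tested beyond the fits described below.

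Promoter sequences show what the members share upstream of their transcripts. RefSeq promoters of build GRCh38.p14 were matched for 69 of the 88 members and read from 250 bases before to 30 bases after the start, on both strands. GCATGCGC, the core of the site of NRF1, was in 18.8% of the 69 members and in 3.19% of 27305 promoters. AAGATGGC, a YY1 site, was in 11.6% and 2.53%, and CGGAAGT, a site of ETS factors such as GABPA, in 15.9% and 7.05%. ACGTG, the core of the site of hypoxia-inducible factors, was in 24.6% and 20.4%, and TGATGNAA, an ATF4 and C/EBP site, in 1.45% and 3.49%. The promoters of 4 members are printed here, chosen after their matches and values were seen: 3 that were lower in high glucose and hold an NRF1 site, and COX7A2L, the member with the largest drop among well expressed ones. Capitals mark the matches. In SDHB they are NRF1 and YY1 sites, and in NDUFS7 a palindrome that holds ACGTG on both strands, an NRF1 site and a YY1 site. In ATP5G2 (ATP5MC2 in RefSeq) they are ACGTG on the reverse strand and an NRF1 site. The SDHB window lies at chr1:17054003-17054282, that of NDUFS7 at chr19:1383657-1383936, that of ATP5G2 at chr12:53676054-53676333 and that of COX7A2L at chr2:42361188-42361467; NDUFS7 is on the plus strand and the others on the minus strand.
SDHB: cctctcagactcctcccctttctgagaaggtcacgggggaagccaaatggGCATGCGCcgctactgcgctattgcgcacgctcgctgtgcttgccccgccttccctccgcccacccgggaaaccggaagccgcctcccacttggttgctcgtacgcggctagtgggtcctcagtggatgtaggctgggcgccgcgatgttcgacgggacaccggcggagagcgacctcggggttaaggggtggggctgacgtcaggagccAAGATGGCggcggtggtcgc
NDUFS7: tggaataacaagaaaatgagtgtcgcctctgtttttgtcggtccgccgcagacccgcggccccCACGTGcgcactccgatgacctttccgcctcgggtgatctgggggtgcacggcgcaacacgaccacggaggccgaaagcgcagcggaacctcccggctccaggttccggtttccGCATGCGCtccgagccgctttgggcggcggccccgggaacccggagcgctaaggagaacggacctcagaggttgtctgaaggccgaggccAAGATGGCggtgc
ATP5G2: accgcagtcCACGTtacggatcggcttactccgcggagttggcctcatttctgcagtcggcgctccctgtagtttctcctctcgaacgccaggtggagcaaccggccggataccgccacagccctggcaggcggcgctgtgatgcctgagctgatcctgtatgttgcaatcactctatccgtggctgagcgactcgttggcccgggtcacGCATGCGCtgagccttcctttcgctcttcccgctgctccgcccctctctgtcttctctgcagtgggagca
COX7A2L: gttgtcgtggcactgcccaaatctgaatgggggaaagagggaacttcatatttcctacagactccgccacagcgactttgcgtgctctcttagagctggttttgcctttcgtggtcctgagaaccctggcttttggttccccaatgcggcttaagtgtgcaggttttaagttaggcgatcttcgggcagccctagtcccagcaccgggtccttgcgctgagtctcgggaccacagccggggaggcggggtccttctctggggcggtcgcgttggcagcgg
The COX7A2L window holds none of the 5 motifs. In high against low glucose 0 members were higher and 4 lower of the 13 tested with the NRF1 match, and 2 higher and 21 lower of the 52 without it. For ACGTG the lower members were 10 of 17 with a match and 15 of 48 without, and for the YY1 site 4 of 8 and 21 of 57. For the ETS site they were 3 of 11 and 22 of 54, and for the ATF4 and C/EBP site 0 of 1 and 25 of 64. Among all genes tested 33.8% were lower and 33.7% higher. Calls of genes outside the module were not split by motif. None of these splits was tested, and several hold few members.

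The first comparison asks how the respiratory chain genes differ between 10 mM and 1 mM glucose. Most called differences were small and downward: 33 members were lower in 10 mM glucose, 5 were higher, and 43 of the 81 tested were not called. The median log2 fold change of the 81 was -0.17, against 0.00 for all 14416 genes tested, with 61 members below 0 and 20 above. Only 2 members differed by 2-fold or more, COX7A2L and NDUFA4L2, and both were lower in high glucose. A gene was called at a Benjamini-Hochberg adjusted p under 0.05 over all genes tested (edgeR's quasi-likelihood test). Among all genes tested 67.5% were called, 33.7% higher and 33.8% lower, so 38 of 81 members is a smaller share than the background. The 4 libraries of one group lay wholly above those of the other for 31 of the 81 members, and for 61.5% of all genes.

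The median and the split of the calls depended on how the libraries were scaled, while the calls of COX7A2L and NDUFA4L2 did not. With library totals in place of TMM, which moved the median of all genes to 0.14, 11 members were higher and 15 lower, or 13.6% and 18.5% of the 81, against 43.3% and 25.05% of all genes in the same fit, and the members' median was -0.03. Without both libraries rich in short transcripts, 14 were higher and 35 lower (36.5% and 36.2% of all genes) and the median was -0.07. With each library's trend over coding length and GC removed, an alternative chosen after seeing the data, 22 were higher and 29 lower (37.3% and 36.2% of all genes). With transcript length in place of coding length these were 25 and 22 (37.1% and 35.5% of all genes), and 41 of the 81 members lay above 0 and the median was 0.00. The removal of the coding length trend moved 79 of the 81 members up, by a median of 0.16, and their median log2 fold change became -0.04. All 29 members lower after the removal of the coding length trend, and 5 of the 22 higher, had been called in the same direction without it, 4 calls were lost, and the 17 added calls were all higher. Members called lower in the fit as designed, in all 13 other fits that tested them and with each library left out in turn were 14 of 33, and members called higher 1 of 5. A required change of at least 25%, which is not among the 13, left 23 members lower and 0 higher. Those 14 are NDUFA4L2, COX7A2L, UQCRC2, SDHB, NDUFS8, NDUFS7, NDUFS4, NDUFV1, NDUFV3, NDUFC1, COX4I1, ATP5G2, ATP5B and ATP5S, and the 1 is NDUFB3.

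**Figure D1:**
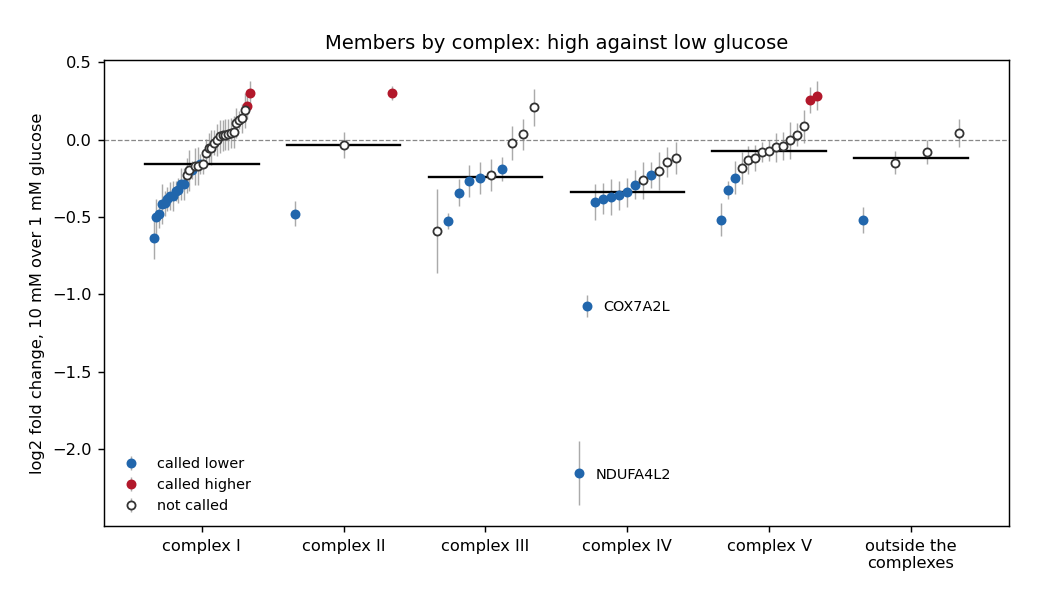
Log2 fold change of each tested member in 10 mM against 1 mM glucose, sorted within each complex, with bars for 1 SE and a black line at the median. Members of complex IV all lie below 0 as fitted (12 of 13 with library totals, 11 and 9 of 13 with the coding and the transcript length trend removed), and COX7A2L and NDUFA4L2 lie below -1, while complexes I, II, III and V have members on both sides.

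**Figure D2:**
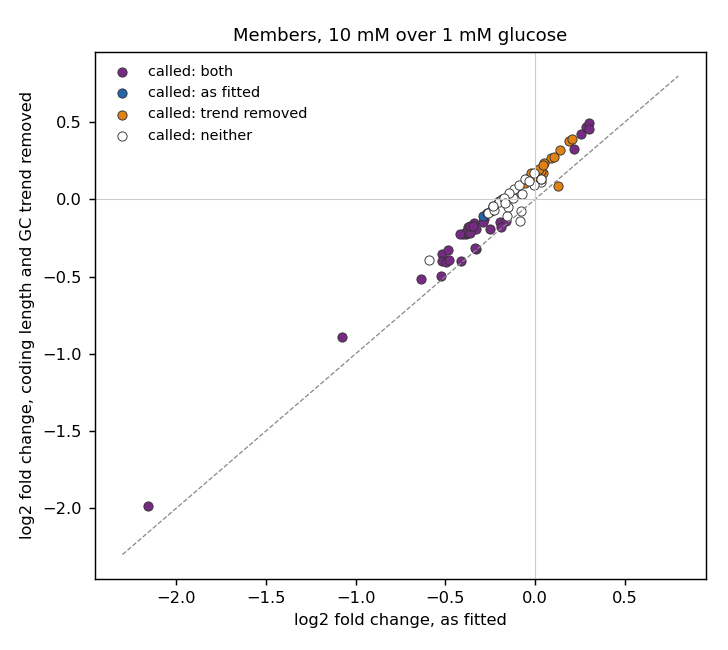
Log2 fold change of the 81 tested members in 10 mM against 1 mM glucose as fitted (x axis) and with the trend over coding length and GC removed (y axis), coloured by the fit in which the member was called. Of the 81 points 79 lie above the dashed line of equality, and the members called only after removal (17, orange) are all above 0.

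Complex I takes electrons from NADH through a flavin and a chain of iron-sulfur clusters. In high glucose 14 of its 36 tested members were lower and 2 higher, with a median log2 fold change of -0.16, which was -0.05 without both libraries rich in short transcripts and 0.05 with the transcript length trend removed. The shares among all genes tested were 33.8% lower and 33.7% higher. Of the 7 nuclear core subunits, which form the electron path of the complex, 4 were lower and 1 was higher. NDUFS8, an iron-sulfur subunit near the quinone site, had 79.3, 58.7, 102 and 73.6 CPM in 1 mM and 50.5, 47.4, 57.6 and 46.6 CPM in 10 mM glucose, with 84.7, 65.6, 67.4 and 62.9 CPM in acetate. The 10 mM libraries were all below those of the other groups, and the log2 fold change against 1 mM was -0.63 ± 0.14 (SE), with an edgeR adjusted p of 0.00098. NDUFS7, the subunit of the last cluster, fell from 43.8 ± 7.65 to 31.0 ± 3.49 CPM (mean ± SD; log2 fold change -0.50 ± 0.12; edgeR adjusted p = 0.0016). Its groups overlapped slightly: the highest 10 mM library had 36.0 CPM and the lowest 1 mM library 35.7 CPM. NDUFV1, which binds NADH and the flavin, fell from 221 ± 25.5 to 166 ± 11.7 CPM, with no overlap (log2 fold change -0.41 ± 0.08; edgeR adjusted p = 0.00034).

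Differences in NDUFV2 and NDUFS1 were smaller. NDUFV2, a partner of NDUFV1 with its own iron-sulfur cluster, was called higher, from 15.7 ± 1.97 to 18.3 ± 0.802 CPM (log2 fold change 0.22 ± 0.09; edgeR adjusted p = 0.038). That call was lost without 1 mM replicate 1, 2 or 4 or 10 mM replicate 2, 3 or 4 (0.16 to 0.23; edgeR adjusted p 0.055 to 0.13). NDUFS1, the largest subunit of the electron input arm, had 141 ± 7.63 and 154 ± 6.23 CPM and was not called (log2 fold change 0.13; edgeR adjusted p = 0.056), although it was called without 1 mM replicate 2 or acetate replicate 1 (0.14 and 0.13; edgeR adjusted p = 0.047 and 0.04). It was also called with library totals (0.27; edgeR adjusted p = 0.00054), and its sign turned with the transcript length trend removed (-0.09; edgeR adjusted p = 0.35). With the coding length trend removed it was called higher (0.09; edgeR adjusted p = 0.048). The transcript length used for NDUFS1 was 11819 nt, against a coding length of 2181 nt, and such lengths are uncertain.

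Of the 29 accessory subunits, which surround the core and carry no electrons, 10 were lower and 1 was higher in high glucose. The one that was higher was NDUFB3, of the membrane arm, with 37.5, 37.5, 45.1 and 41.5 CPM in 1 mM, 46.8, 40.7, 37.7 and 39.7 CPM in acetate and 47.9, 50.1, 49.2 and 52.2 CPM in 10 mM glucose. Every 10 mM library was above every library of the other groups, and the log2 fold change against 1 mM was 0.30 ± 0.08 (edgeR adjusted p = 0.0024). NDUFS4, NDUFV3 and NDUFC1, accessory subunits named for the stability of their calls after their values were seen, had log2 fold changes of -0.48, -0.33 and -0.36. NDUFA3, a membrane arm subunit, fell from 22.8 to 17.1 CPM (log2 fold change -0.42; edgeR adjusted p = 0.011), a call lost with library totals (-0.27; edgeR adjusted p = 0.074). NDUFA6 had 40.1 and 43.2 CPM and was not called.

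Complex II is succinate dehydrogenase, the enzyme shared by the chain and the citric acid cycle, and the rule takes in its iron-sulfur subunit SDHB and its membrane anchors SDHC and SDHD. SDHB and SDHC differed in opposite directions between the glucose levels, and SDHD was not called. SDHB had 76.5, 71.5, 91.9 and 83.2 CPM in 1 mM, 88.6, 82.2, 71.6 and 73.5 CPM in acetate and 57.6, 56.9, 60.5 and 56.6 CPM in 10 mM glucose. Its log2 fold change in high against low glucose was -0.48 ± 0.08 (edgeR adjusted p = 0.00011), with no overlap. SDHC had 77.0, 80.1, 80.2 and 80.3 CPM in 1 mM, 83.1, 83.2, 78.6 and 82.5 CPM in acetate and 98.7, 98.1, 94.5 and 100.4 CPM in 10 mM glucose. Here the 10 mM libraries were the highest, and the log2 fold change was 0.30 ± 0.04 (edgeR adjusted p = 2.7e-05). The SDHC call was lost with the trend over transcript length and GC removed (0.05; edgeR adjusted p = 0.71) and held with coding length. The transcript length used for SDHC was 13566 nt, against a coding length of 507 nt, and such lengths are uncertain. The ratio of SDHB to SDHC within a library, which does not depend on scaling, was 1.71-fold lower in 10 mM than in 1 mM glucose. This pair was chosen after its values were seen, so the ratio is given with no test; its log2 value was -0.16 to 0.20 in 1 mM and -0.83 to -0.64 in 10 mM. SDHD lay between 15.6 and 18.6 CPM in 1 mM and between 15.9 and 19.2 CPM in 10 mM glucose (log2 fold change -0.03; edgeR adjusted p = 0.73), and its value was above 0 with library totals or a trend removed (0.11 to 0.17), called higher only with the transcript length trend removed (edgeR adjusted p = 0.04, and 0.027 with the replicate block). SDHA, the flavin subunit, lies outside the symbol rule and belongs to the list of carriers described further on: it was higher in 10 mM glucose, 121 ± 3.32 against 99.6 ± 7.34 CPM.

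Complex III passes electrons from ubiquinol to cytochrome c. In high glucose 5 of its 10 tested members were lower and 0 higher (33.8% and 33.7% of all genes tested), with a median log2 fold change of -0.24. The median stayed below 0 under every alternative run and with each library left out, at -0.10 with library totals or with the transcript length trend removed. The clearest was UQCRC2, one of a pair of large core proteins, with 158, 160.4, 169 and 161 CPM in 1 mM, 166, 160.4, 154 and 146 CPM in acetate and 109, 114, 112 and 117 CPM in 10 mM glucose. All 10 mM libraries were below all others, and the log2 fold change was -0.52 ± 0.05 (edgeR adjusted p = 4.5e-07). UQCRC1, the other core protein, had 179 ± 22.4 and 157 ± 9.93 CPM (log2 fold change -0.19; edgeR adjusted p = 0.048). Its call was lost when any 1 of 9 libraries was left out, all but acetate replicate 1, 1 mM replicate 2 and 10 mM replicate 3 (-0.21 to -0.10; edgeR adjusted p 0.05 to 0.16), and with library totals (-0.05; edgeR adjusted p = 0.61).

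CYC1, which carries the haem that hands electrons to cytochrome c, had 87.6 ± 15.2 and 73.7 ± 4.10 CPM (log2 fold change -0.25; edgeR adjusted p = 0.045). That call was lost without 1 mM replicate 1 or 3, acetate replicate 2 or 3, or 10 mM replicate 1, 2 or 4 (-0.26 to -0.13; edgeR adjusted p 0.053 to 0.16), and with library totals (-0.11; edgeR adjusted p = 0.37). UQCRFS1, the Rieske iron-sulfur protein, was not called (log2 fold change 0.03 ± 0.10; edgeR adjusted p = 0.77), and its sign turned without 1 mM replicate 1 or 2 (-0.03 and -0.02). The small subunits UQCRB and UQCR11 were called lower, at -0.34 and -0.27. With library totals neither was called (-0.20 and -0.13; edgeR adjusted p = 0.06 and 0.29). UQCR11 was also not called with the coding or the transcript length trend removed (-0.09 and -0.10; edgeR adjusted p = 0.18 and 0.14), nor without 1 mM replicate 3 or 4 or 10 mM replicate 1, 2 or 4 (-0.27 to -0.18; edgeR adjusted p 0.055 to 0.093). UQCRHL, a near copy of UQCRH with which it may share reads, had 2.62 and 1.75 CPM and was not called.

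Complex IV is cytochrome c oxidase, and all 13 tested members had a log2 fold change below 0 in high glucose, 12 of 13 with library totals, 11 of 13 with the coding length trend removed and 9 of 13 with the transcript length trend removed. As fitted 9 of the 13 were called lower, with a median of -0.34, and 7, 3 and 4 were called lower with the coding length trend removed, with library totals and with the transcript length trend removed. Among all genes tested 33.8% were called lower as fitted, and 36.2%, 25.05% and 35.5% in these other fits. The median of complex IV was -0.16, -0.20 and -0.07 in them. The largest drop was that of NDUFA4L2, a paralogue of the complex IV subunit NDUFA4 known as a hypoxia-induced gene. It had 3.75, 2.63, 3.82 and 3.02 CPM in 1 mM, 2.99, 2.56, 2.69 and 2.04 CPM in acetate and 0.658, 0.581, 1.09 and 0.619 CPM in 10 mM glucose. These are low levels, resting on 16 to 98 counts per library, and the 10 mM libraries were below all others. NDUFA4L2 was 4.46-fold lower in 10 mM than in 1 mM glucose (log2 fold change -2.16 ± 0.21; edgeR adjusted p = 3.2e-07). NDUFA4 itself had 114 ± 13.3 and 104 ± 4.47 CPM and was not called (log2 fold change -0.14, and 0.04 with the coding length trend removed).

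COX7A2L encodes a relative of COX7A2 that joins complexes III and IV into supercomplexes. It had 166, 155, 171 and 158 CPM in 1 mM, 175, 149, 144 and 138 CPM in acetate and 73.6, 76.7, 79.5 and 78.9 CPM in 10 mM glucose. The 10 mM libraries stood far below both other groups, 2.11-fold below 1 mM glucose (log2 fold change -1.07 ± 0.07; edgeR adjusted p = 4.6e-09), and this was the lowest p of any member. COX7A2, the common form of subunit 7A, fell by much less, from 164 ± 19.7 to 129 ± 6.32 CPM (log2 fold change -0.34). The ratio of COX7A2L to COX7A2 within a library fell 1.67-fold, with log2 ratios of -0.15 to 0.16 in 1 mM and -0.81 to -0.69 in 10 mM glucose. For NDUFA4L2 to NDUFA4 it fell 4.16-fold. Neither ratio is tested, since the values had been seen when the pairs were chosen.

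Of the 11 tested common forms of the oxidase subunits, 7 were lower by small amounts. COX4I1, a large subunit that takes part in the regulation of the enzyme, had 257, 229.6, 326 and 262 CPM in 1 mM and 202, 192, 218 and 212 CPM in 10 mM glucose (log2 fold change -0.38 ± 0.10; edgeR adjusted p = 0.0039). COX5A, COX6A1, COX7A2, COX7C and COX8A lay between -0.40 and -0.29, all called. Their calls are less firm than that of COX4I1: library totals took the edgeR adjusted p of COX5A to 0.059, of COX6A1 to 0.06, of COX7A2 to 0.078, of COX8A to 0.1 and of COX7C to 0.17. COX6A1, COX7A2 and COX8A were also not called with the trend over transcript length removed (log2 fold changes -0.14, -0.07 and -0.11), and COX7C was not with the coding length trend removed (-0.11) or the transcript length trend removed (0.01). COX6B1 had 108 ± 20.1 and 93.8 ± 6.92 CPM and was not called (log2 fold change -0.20, and 0.05 with the transcript length trend removed).

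Forms of these subunits known from muscle, lung and testis were at or near 0. COX4I2 and COX7B2 had 0 counts in all 12 libraries, which allows at most 0.123 CPM in any library (3 counts). COX6A2 and COX8C had at most 1 count per library, COX6B2 1 to 4 and COX7A1 2 to 14, and ATP5L2, a copy of a complex V subunit gene, had 1 to 7. These 7 members did not pass the filter on low counts and were not tested.

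**Figure D3:**
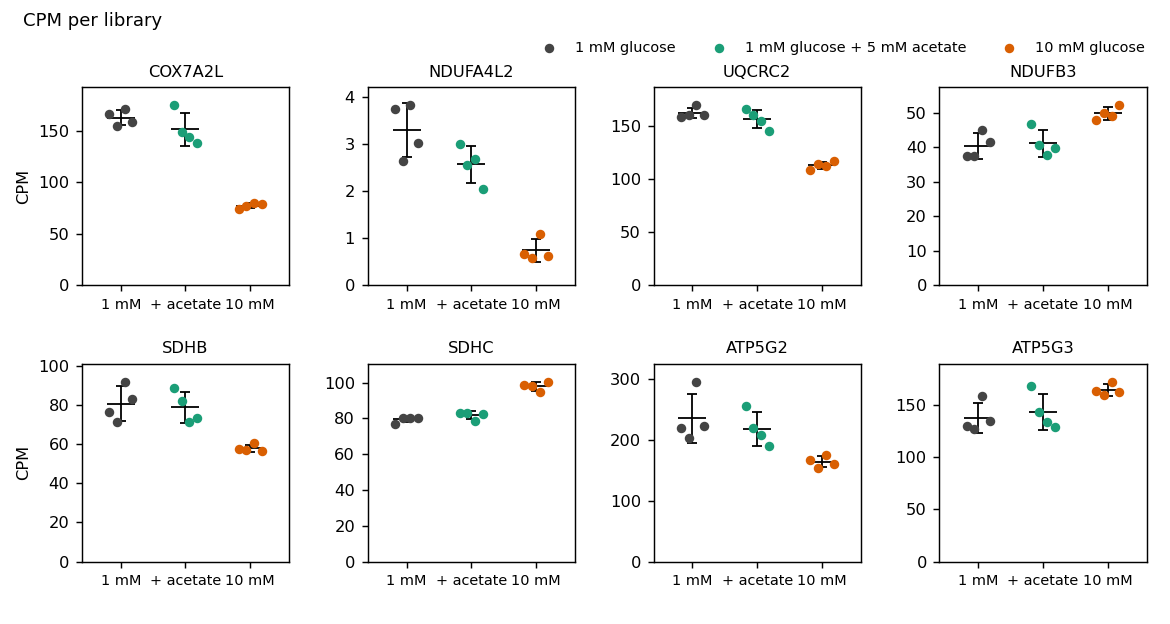
CPM of 8 members in each of the 12 libraries, with the group mean and SD as lines and all axes starting at 0. COX7A2L, NDUFA4L2, UQCRC2, SDHB and ATP5G2 are lowest in 10 mM glucose, NDUFB3 and SDHC are highest there, and the acetate libraries lie within or near the 1 mM range.

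In complex V, 3 of the 15 tested members were lower and 2 higher in high glucose (33.8% and 33.7% of all genes tested), with a median of -0.07, which was 0.06 with the transcript length trend removed and 0.07 with library totals. In the F1 head, where ATP is made, the catalytic beta subunit ATP5B had 863, 808, 950.2 and 864 CPM in 1 mM, 877, 825, 782 and 776 CPM in acetate and 691, 677, 707 and 703 CPM in 10 mM glucose. It was lower in 10 mM glucose (log2 fold change -0.33 ± 0.06; edgeR adjusted p = 0.00016), with no overlap. The alpha subunit ATP5A1, its partner in the head, had 473 ± 33.9 and 447 ± 9.98 CPM and was not called (log2 fold change -0.08 ± 0.06; edgeR adjusted p = 0.27), and its sign turned with library totals and with the transcript length trend removed (0.06 and 0.04). None of the other 3 head subunits and none of the 4 peripheral stalk subunits, which hold the head in place, was called.

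The 3 genes of the c ring, the rotor that protons turn, encode the same mature protein behind different import sequences, and they did not move together. ATP5G2 had 219, 203, 295 and 223 CPM in 1 mM and 166, 154, 175 and 161 CPM in 10 mM glucose, and was lower there (log2 fold change -0.52 ± 0.11; edgeR adjusted p = 0.00067). ATP5G3 had 129.6, 127, 158 and 134 CPM in 1 mM and 163, 159, 172 and 162 CPM in 10 mM glucose, and was higher (log2 fold change 0.26 ± 0.08; edgeR adjusted p = 0.014). The groups were apart for both genes, though for ATP5G3 1 mM replicate 3, at 158 CPM, was just below the lowest 10 mM library, at 159 CPM. The ATP5G3 call was lost with the trend over transcript length removed (0.16; edgeR adjusted p = 0.28) and held with coding length. Its transcript length was taken as 5484 nt, which is uncertain, against a coding length of 426 nt. Within a library the ratio of ATP5G3 to ATP5G2 was 1.70-fold higher in 10 mM than in 1 mM glucose, with log2 ratios of -0.90 to -0.68 in 1 mM and -0.03 to 0.04 in 10 mM. This pair too was chosen after its values were seen and is given with no test.

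ATP5G1, the remaining c ring gene, was called at the edge of the threshold, from 86.3 ± 12.2 to 72.8 ± 4.59 CPM (log2 fold change -0.24 ± 0.10; edgeR adjusted p = 0.05, which is just under the threshold before rounding). Its call was lost without 1 mM replicate 3 or 4, acetate replicate 2 or 4, or 10 mM replicate 1, 2 or 4 (-0.26 to -0.14; edgeR adjusted p 0.054 to 0.17). It was also lost with library totals (-0.10; edgeR adjusted p = 0.4) and with the coding length trend removed (-0.07; edgeR adjusted p = 0.21), and the value was 0.01 with the transcript length trend removed. ATP5J2, a small membrane subunit, had 75.8, 72.1, 95.2 and 85.6 CPM in 1 mM and 99.7, 92.9, 103 and 104 CPM in 10 mM glucose. Only 1 mM replicate 3 overlapped the 10 mM libraries, and the gene was called higher (log2 fold change 0.28 ± 0.09; edgeR adjusted p = 0.016). That call was lost without 1 mM replicate 1 or 2 (0.24 and 0.22; edgeR adjusted p = 0.053 and 0.05). ATP5J2-PTCD1, the readthrough gene, was not called (log2 fold change -0.08 ± 0.08; edgeR adjusted p = 0.36), and whether the pair share reads was not tested. ATP5S, which is named for the synthase but is not a subunit, fell from 10.6 ± 0.760 to 7.38 ± 0.530 CPM (log2 fold change -0.52; edgeR adjusted p = 5.4e-05).

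The second comparison asks what acetate added to 1 mM glucose does to the same genes. No member was called by edgeR, in either direction: 3 of the 81 had an unadjusted p under 0.05, DESeq2 called 1 (NDUFA12), and the lowest edgeR adjusted p was 0.063. Among all genes tested 13.7% were called, 6.65% higher and 7.09% lower, so 0 of 81 is below the background. The groups were apart for 0 of 81 members and for 15.6% of all genes. The median log2 fold change of the members was -0.06, against 0.00 for all genes, and the SE of a single member was 0.10 at the median and 0.26 at most. In data simulated on this comparison, edgeR recovered 44% of changes of 25%, 98% of 1.5-fold changes and 100% of 2-fold changes (14320 genes), so small changes were often not detectable. The simulation changed few genes and did not hold the shift of short transcripts that some libraries share. Its rates therefore need not be those of the members.

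This count changed with single libraries. Without acetate replicate 1, 9 members were called lower and 0 higher, with log2 fold changes of -0.32 for NDUFA12, -0.30 for NDUFC1 and -0.18 for COX7A2L (edgeR adjusted p = 0.0053, 0.021 and 0.029). Without both libraries rich in short transcripts 8 were lower, and without 1 mM replicate 2 it was 2. With either length and GC trend removed the same 2, NDUFA12 and NDUFC1, were lower. The shares of all genes called in these fits are not given here, so these counts cannot be set against a background. NDUFA12, an accessory subunit of complex I that joins the arms of the complex, had 50.5, 46.3, 54.5 and 55.1 CPM in 1 mM and 51.0, 43.2, 40.0 and 40.8 CPM in acetate (log2 fold change -0.24 ± 0.08; edgeR adjusted p = 0.063). Acetate replicate 1 was the highest of its group and the only one above any 1 mM library. NDUFC1, a small accessory subunit, had 49.9 ± 4.85 and 42.9 ± 5.30 CPM (log2 fold change -0.22 ± 0.09; edgeR adjusted p = 0.12).

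The members with the largest glucose differences were not called with acetate. COX7A2L had 163 ± 7.47 CPM without and 151 ± 16.2 CPM with acetate (log2 fold change -0.10 ± 0.07; edgeR adjusted p = 0.35). NDUFA4L2 had 3.30 ± 0.578 and 2.57 ± 0.397 CPM (log2 fold change -0.36 ± 0.17; edgeR adjusted p = 0.17), the largest acetate difference of the 81 members. For UQCRC2 the log2 fold change was -0.05 ± 0.05, for SDHB -0.03 ± 0.08, for SDHC 0.04 ± 0.04 and for ATP5B -0.10 ± 0.06. The ratio of ATP5G3 to ATP5G2 was 1.12-fold higher with acetate, with log2 ratios of -0.90 to -0.68 without and -0.63 to -0.55 with it, and neither gene was called alone.

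The third comparison sets 10 mM glucose against 1 mM glucose with acetate, and its test doubles as that of the glucose effect against the acetate effect. It shares the 10 mM libraries with the first comparison and the acetate libraries with the second. In it 24 members were lower in 10 mM glucose, 4 were higher and 53 were not called, with a median of -0.11. Among all genes 62.8% were called, 31.0% higher and 31.8% lower. The groups were apart for 25 of 81 members and 61.0% of all genes. Here too the split moved with the processing: 8 higher and 13 lower with library totals (38.6% and 24.9% of all genes) and 19 and 24 without both libraries rich in short transcripts (34.3% and 34.4%). It was 25 and 26 with the coding length trend removed (36.0% and 34.4%), and 26 and 19 with the transcript length trend removed (36.4% and 33.5%). Without acetate replicate 1 it was 11 higher and 22 lower, and the share of all genes in that fit is not given here.

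COX7A2L was 1.96-fold lower in 10 mM glucose than with acetate (log2 fold change -0.97 ± 0.07; edgeR adjusted p = 1.9e-08) and NDUFA4L2 3.47-fold lower (-1.79 ± 0.21; edgeR adjusted p = 4e-06). The calls for UQCRC2, SDHB, NDUFS8, ATP5G2 and ATP5B lay at -0.47, -0.45, -0.47, -0.41 and -0.23, and those for NDUFA3, UQCR11 and COX7C at -0.39, -0.34 and -0.38. Higher in 10 mM glucose were ATP5J2 (0.37), NDUFB3 (0.28), SDHC (0.26) and NDUFA6 (0.25), an accessory subunit of complex I. The NDUFA6 call (edgeR adjusted p = 0.033) was lost without acetate replicate 2, 3 or 4 or 10 mM replicate 2, 3 or 4 (0.20 to 0.26; edgeR adjusted p 0.051 to 0.1). SDHC was not called with the transcript length trend removed (0.11; edgeR adjusted p = 0.44) and COX7C was not either (-0.09; edgeR adjusted p = 0.12). With library totals ATP5B, NDUFA3 and UQCR11 were not called (-0.13, -0.29 and -0.24; edgeR adjusted p = 0.073, 0.062 and 0.053).

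Libraries of a group differed in the level of whole complexes. The median deviation of the members of complex I from their mean over the 12 libraries was 0.29 on the log2 scale in 1 mM replicate 3 and 0.23 in acetate replicate 1. In the other 6 libraries with 1 mM glucose it lay between -0.12 and 0.04, and in the 10 mM libraries between -0.10 and 0.03. The 10 mM libraries therefore did not lie below all low glucose libraries for complex I as a whole. These are the same 2 libraries in which short transcripts stood higher, and the part of that relation in the calls was not tested beyond the fits without them and with the trend removed. The mitochondrial ribosomal protein genes, which are also short (median coding length 576 nt), had a like result: 7 higher and 29 lower of 79 tested in high glucose (33.7% and 33.8% of all genes tested), with a median of -0.17.

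**Figure D4:**
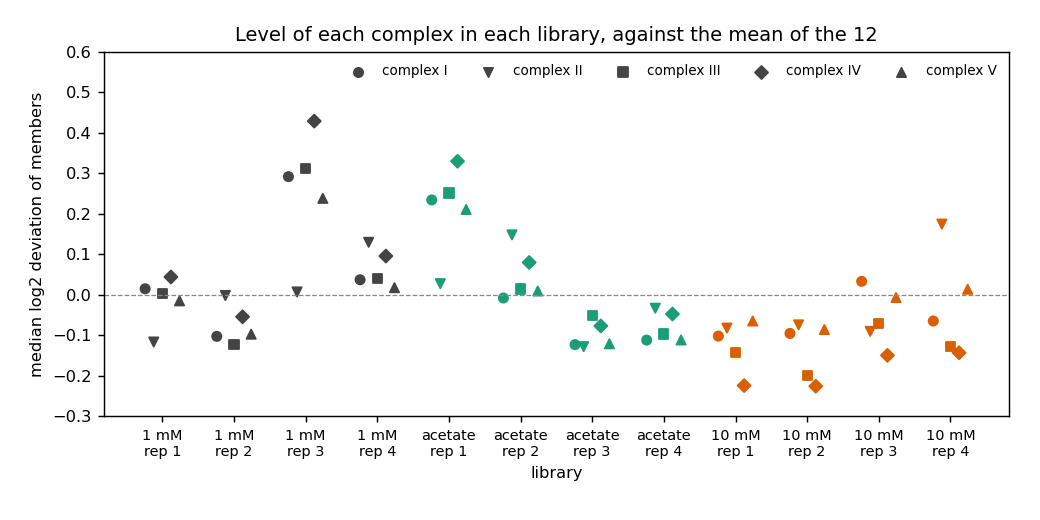
Median deviation (log2) of the tested members of each complex from their mean over the 12 libraries, by library and coloured by group. Complexes I, III, IV and V stand above 0.2 in 1 mM replicate 3 and acetate replicate 1, and complex IV lies below -0.1 in all 4 libraries with 10 mM glucose.

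The members were set beside 3 lists of other genes of the pathway. Of 38 assembly factors, which build the complexes and are not part of them, 6 were higher and 14 lower in high glucose, with a median log2 fold change of -0.11. These are 52.6% of the list, against 67.5% of all genes tested. NDUFAF2 and ECSIT, which help to build complex I, fell from 17.3 ± 1.79 to 10.9 ± 0.605 CPM and from 29.2 ± 3.90 to 18.1 ± 1.67 CPM (log2 fold changes -0.68 ± 0.09 and -0.69 ± 0.11). LRPPRC, which stabilises mitochondrial messenger RNAs, fell from 279 ± 24.0 to 211 ± 6.78 CPM (-0.40 ± 0.06). All 3 were called, with edgeR adjusted p of 9.5e-06, 3.9e-05 and 4.4e-05.

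Of 20 tested transcriptional regulators and genes of mitochondrial DNA upkeep, 9 were higher and 9 lower in high glucose, 90% of the list. PPARGC1A, a coactivator that promotes the making of mitochondria, had 11.9, 11.9, 6.67 and 10.3 CPM in 1 mM, 9.05, 10.0, 10.6 and 9.56 CPM in acetate and 1.78, 2.14, 1.49 and 1.35 CPM in 10 mM glucose. The 10 mM libraries stood far below the others, 6.00-fold below 1 mM glucose (log2 fold change -2.59 ± 0.19; edgeR adjusted p = 1.7e-08). ESRRA, a nuclear receptor that PPARGC1A coactivates, named here after its values were seen, fell from 59.2 ± 6.14 to 40.6 ± 0.234 CPM (-0.55 ± 0.08; edgeR adjusted p = 2.8e-05). PPARGC1B and ESRRG, of the same list and also named after their values were seen, were higher in 10 mM glucose. Their log2 fold changes were 0.55 ± 0.14 and 0.62 ± 0.11 (edgeR adjusted p = 0.0024 and 0.00021). ESRRG was also called higher with acetate (0.50, edgeR adjusted p = 0.012). PPRC1 was not called in high glucose (-0.16, edgeR adjusted p = 0.094). TOP1MT, the mitochondrial topoisomerase, fell from 43.4 ± 3.52 to 25.2 ± 1.11 CPM (-0.78 ± 0.06). NRF1, the factor whose site is in 13 of the 69 promoters, went the other way, with 24.2 ± 0.737 CPM in 1 mM, 24.2 ± 0.494 CPM in acetate and 36.0 ± 1.29 CPM in 10 mM glucose and no overlap (0.57 ± 0.05; edgeR adjusted p = 1.4e-07). GABPA, an ETS factor, and TFAM, the packaging factor of mitochondrial DNA, were also higher in 10 mM glucose, by 0.27 ± 0.06 and 0.39 ± 0.06.

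Of 25 electron carriers, inhibitors and genes that feed the chain, 6 were higher and 10 lower in high glucose, 64% of the list. CYCS, cytochrome c, fell from 381 ± 12.0 to 270.2 ± 14.1 CPM (log2 fold change -0.50 ± 0.06; edgeR adjusted p = 7.9e-06). AIFM1, a flavoprotein needed for respiratory chain upkeep, fell by a smaller amount (-0.34 ± 0.05). PDSS2, of ubiquinone synthesis, rose from a mean of 11.3 CPM by 0.50 ± 0.06 on the log2 scale, SDHA rose by 0.28 on the log2 scale, and ATPIF1, the inhibitor of ATP synthase running in reverse, rose from a mean of 45.0 to 55.3 CPM (0.30 ± 0.09). With acetate 2 of 38 assembly factors, 2 of 20 regulators and 1 of 25 carriers were called, against 13.7% of all genes, and the log2 fold change of PPARGC1A was -0.05 ± 0.15 (edgeR adjusted p = 0.86).

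**Figure D5:**
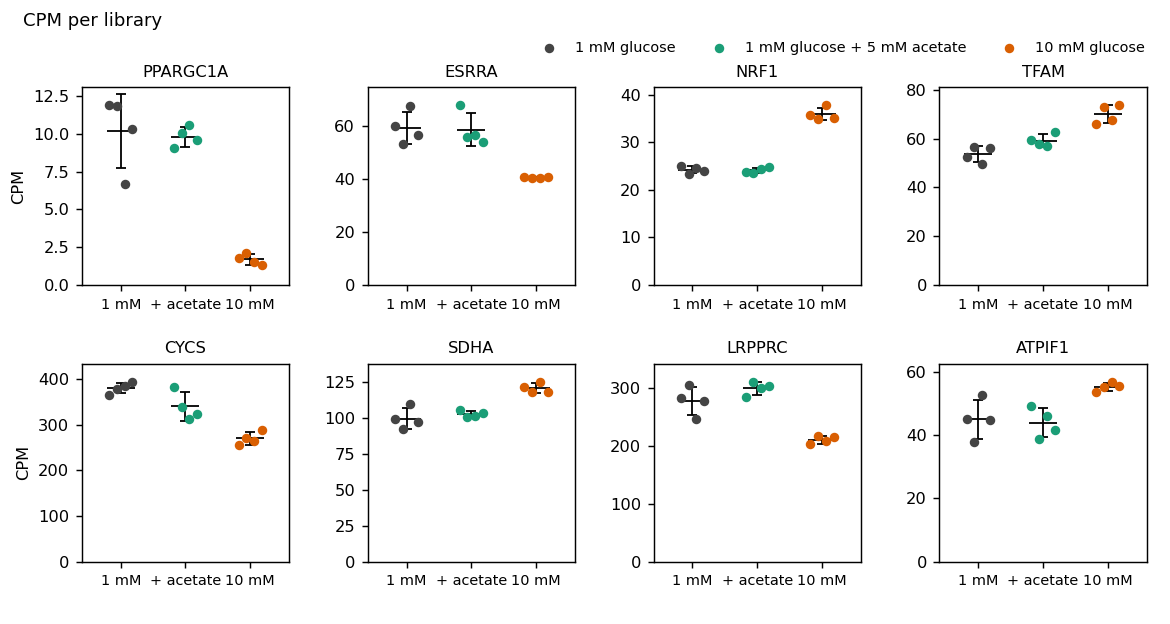
CPM of 8 genes outside the module in each of the 12 libraries, with the group mean and SD as lines and all axes starting at 0. PPARGC1A, ESRRA, CYCS and LRPPRC are lowest and NRF1, TFAM, SDHA and ATPIF1 highest in 10 mM glucose.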

How the data were processed

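Each of the 12 deposited tables holds the authors' raw counts over 34917 RefSeq transcripts, not normalized, per the file headers; the build is hg19 per the submitters' processing notes, and aligner, counter and strand setting were not given in the sources used here. Each member was represented by the coding transcript that the authors marked, or else by the coding one with the highest total. For 4 members the authors had marked a noncoding transcript, which was not used. Other genes were treated in the same way, but with no coding transcript required. Reads shared by overlapping genes or near copies cannot be told apart.

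Samples were grouped by title. Genes passing filterByExpr were tested with edgeR 4.0.16 (R 4.3.3; TMM; quasi-likelihood test; all 12 libraries, 1 mean per group; Benjamini-Hochberg over 14416 genes), with DESeq2 1.42.0 and limma 3.58.1 as alternatives. The common biological coefficient of variation was 8.51%. The script was tested on simulated data. The median deviations of the complexes used log2(CPM + 0.5). Deviations in the correlations with length and between replicates, and in the trend removal, used edgeR's log2 CPM with a prior count of 2.

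The members, lists and tests were chosen with earlier results of these data known. Named genes were core subunits, isoform sets, the 2 highest and 2 lowest called members per complex and comparison at a mean of 5 CPM or more, and up to 3 called genes per other list plus PPARGC1A, NRF1, GABPA, TFAM, CYCS, SDHA and ATPIF1. A result under this rule is not reported here. Other names, the ratios, the motifs and the printed promoters were chosen after values were seen. Ratios are given with no test for that reason. Transcript lengths came from a GRCh38 annotation matched by accession or symbol, and can be longer than the transcripts counted. Levels of different genes were not compared, since some transcript lengths are uncertain. Intervals for 0 counts cover counting error only.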

Additional observations from a re-analysis of the deposited data

Results flagged for a closer look

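In 180 groups of 4 libraries the highest or lowest library was set against its neighbours, and 9 stood apart; chance gives about 1 in 20. Among members these were COX6A1 in 10 mM replicate 3 at 40.9 CPM, NDUFA4 and NDUFV1 in acetate replicate 1 at 141 and 222 CPM, and NDUFA4L2 in 10 mM replicate 3 at 1.09 CPM. In the same way SDHC stood low in 1 mM replicate 1, at 77.0 CPM, and in acetate replicate 3, at 78.6 CPM. SDHD stood high in 10 mM replicate 4, at 19.2 CPM, and with it the median deviation of complex II there, at 0.175 on the log2 scale. Outside the module PDSS2 stood low in acetate replicate 1, at 10.8 CPM. Acetate replicate 1 is one of the libraries rich in short transcripts, and its part in these values was not tested.

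Counts were also present on the noncoding transcripts of 2 pseudogenes whose symbols match the rule but which have no coding transcript. ATP5EP2 had 436 counts in all, between 22 and 73 per library, and UQCRBP1 had 217, between 8 and 25. Whether these reads come from the parent genes was not tested.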

How the results depend on the processing

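Of the 6 counts of called members, those for glucose were 5 higher and 33 lower and those for 10 mM glucose against acetate 4 and 24. Members higher with glucose became 14 without both libraries rich in short transcripts, 22 with the coding length and GC trend removed (chosen after seeing the data), 25 with the transcript length and GC trend removed, with or without the replicate block, 11 with library totals and 0 when a change of at least 25% was required. Those lower became 15 with library totals. For 10 mM glucose against acetate the members higher became 19, 25, 26, 26 (with the block), 8 and 1 under the same settings, and those lower 13 with library totals. Members lower with acetate, 0 as designed, were 1 with DESeq2, 8 without both libraries, and 2 with either trend removed, also with the block. With a library left out in turn the counts ranged from 3 to 8 (3 without 1 mM replicate 1, 8 without 1 mM replicate 3) and from 25 to 40 for glucose, 0 to 0 and 0 to 9 for acetate, and 3 to 11 and 22 to 27 for 10 mM glucose against acetate. The other settings kept each count within 1.5 times. Same-numbered replicates are not said to pair the samples. Their deviations correlated between -0.36 and 0.27, and between 0.06 and 0.27 for high against low glucose. Such values cannot decide whether the samples were paired. The replicate block alone gave 5 higher and 31 lower for glucose. With it the edgeR adjusted p was 0.062 for NDUFV2, 0.064 for ATP5G1 and 0.037 for NDUFS1. The shares of all genes with the block alone, or with a library left out, are not given here. These counts therefore cannot be set against a background. Signs that turned are listed only for genes followed one by one, first in high against low glucose (log2 fold changes). Most were near 0 or near the threshold as fitted, but COX7C was called lower (-0.29; edgeR adjusted p = 0.012). COX6C, not followed in this way, was also called lower (-0.23; edgeR adjusted p = 0.024), and its highest value over the alternatives was 0.012. With the transcript length trend removed, and again with the block, the turned values were NDUFS1 -0.093 and -0.091, SDHD 0.167 and 0.166, ATP5A1 0.041 and 0.042, COX6B1 0.047 and 0.048, COX7C 0.0078 and 0.0087, and ATP5G1 0.0076 and 0.0075. With the coding length trend removed they were SDHD 0.12 and NDUFA4 0.039, and with library totals SDHD 0.11, ATP5A1 0.062 and ATP5J2-PTCD1 0.0598. Signs of members not followed one by one turned too. With the coding length trend removed ATP5H, ATP5I, NDUFA5, NDUFA11 and UQCRQ, among others, went from below 0 to called higher or above 0. ATP5I went from -0.049 to 0.135 and UQCRQ from -0.020 to 0.169 (edgeR adjusted p = 0.008 and 0.013). With a library left out in turn SDHD ranged from -0.11 to 0.0028, above 0 without 1 mM replicate 4, and UQCRFS1 from -0.033 to 0.16, below 0 without 1 mM replicate 1 or 2. With acetate, SDHB was 0.012 and 0.013 (with the block) and SDHC -0.055 and -0.053 with the transcript length trend removed, and SDHB was 0.0067 with library totals and -0.092 to 0.036 with a library left out, above 0 without acetate replicate 3 or 4 or 1 mM replicate 3. PPARGC1A with acetate ranged from -0.21 to 0.031, above 0 without 1 mM replicate 1 or 2. The trend removal shifts short transcripts, and library totals shift all genes, by construction; the cause of other changes was not tested. Of 1922 values of single genes under the alternatives, 1770 stayed on their side of the threshold in the same direction.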
